A study of Mus musculus with 6 samples.

Results

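Hcrt and Pmch are 2 of the 32285 genes counted in this study, and they were followed by symbol in every section. Hcrt (ENSMUSG00000045471) encodes prepro-orexin, which is cleaved into the peptides orexin A and orexin B. Pmch (ENSMUSG00000035383) encodes the precursor of melanin-concentrating hormone (MCH). Spots with at least 10 UMIs of a gene, called Hcrt-high and Pmch-high here, numbered 244 and 649, and 672 of all 16741 spots were high in either gene. A UMI (unique molecular identifier) marks 1 captured transcript molecule.

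Orexin and MCH neurons are separate cell populations that lie intermingled in the lateral hypothalamus and the adjoining zona incerta, and both project through most of the brain. Orexins act on the receptors encoded by Hcrtr1 and Hcrtr2 and keep animals awake, and loss of orexin neurons causes narcolepsy. MCH acts in rodents on the receptor encoded by Mchr1 and is known for its part in feeding, energy balance and REM sleep.

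The data were Visium spatial transcriptomes of 6 coronal brain sections from male C57BL/6J mice with no genetic change or treatment named. The groups were young (6 months), middle (18 months) and old (21 months), with 2 sections each, and the protocol names 2 frozen male brains an age. Sections were 16 µm thick and aimed at a single front-to-back level. Slide 1 held young 1, young 2, middle 1 and old 1, and slide 2 held middle 2 and old 2. A spot collects RNA from a small patch of tissue with several cells or parts of cells, so fewer cells of a type and less RNA per cell cannot be told apart. Section totals ran from 60938938 to 77557934 UMIs, with medians of 20370 to 30093 UMIs per spot.

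Both genes are short. In GENCODE M21 (GRCm38, the build called mm10) Hcrt lies at chr11:100761069-100762931 on the minus strand and Pmch at chr10:88091072-88092375 on the plus strand. The 300 bases around each start site (250 before and 50 after) are shown because the 2 genes were high in the same sections. They come from RefSeq (GRCm38.p6), in gene orientation, and capitals mark TATAAA for Hcrt and the overlapping TATATA and TATAAA for Pmch.
Hcrt, chr11:100762882-100763181, minus strand: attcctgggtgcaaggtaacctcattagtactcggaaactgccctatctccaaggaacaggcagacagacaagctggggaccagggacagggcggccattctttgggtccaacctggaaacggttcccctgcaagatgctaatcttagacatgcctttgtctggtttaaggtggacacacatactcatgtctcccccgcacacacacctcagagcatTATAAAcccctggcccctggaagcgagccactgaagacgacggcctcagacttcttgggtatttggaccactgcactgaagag
Pmch, chr10:88090822-88091121, plus strand: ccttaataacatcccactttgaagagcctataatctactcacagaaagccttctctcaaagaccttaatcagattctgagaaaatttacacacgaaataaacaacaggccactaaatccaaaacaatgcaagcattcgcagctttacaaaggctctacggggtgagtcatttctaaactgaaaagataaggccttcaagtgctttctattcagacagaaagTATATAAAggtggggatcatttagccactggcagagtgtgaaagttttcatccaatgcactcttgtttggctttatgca
The TATAAA of Hcrt begins 33 bases before the start site. The TATAAA of Pmch, which starts inside its capitals, begins 27 bases before the start site. On the gene's own strand, TATAAA was found in 8.32% and TATATA in 5.67% of 32851 RefSeq promoters of this length, and either in 12.5%. On either strand TATAAA was found in 13.6%, and TATATA reads the same on both strands. G and C made up 53.3% of the Hcrt stretch and 39% of the Pmch stretch.

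A dense field of both transcripts was present in 4 sections, and young 1 and old 1 held almost none. Hcrt was counted at 82 UMIs in young 1, 6002 in young 2, 12129 in middle 1, 16852 in middle 2, 47 in old 1 and 4568 in old 2. In CPM (UMIs of the gene per 1000000 UMIs of the section) this was 1.07, 77.4, 159.0, 224.0, 0.681 and 75.0 in the same order. Young 1 and old 1 were low, and every other section was at least 74.96 CPM. Pmch was counted at 49, 14321, 45036, 69875, 49 and 27017 UMIs in that order, which was 0.637, 184.6, 590.5, 928.6, 0.710 and 443.3 CPM. The same 2 sections were low, and both middle sections were above the rest for both genes. The 95% Poisson interval of Hcrt in young 1 was 0.848 to 1.32 CPM and in old 1 0.500 to 0.905 CPM, and those of Pmch were 0.471 to 0.842 and 0.525 to 0.939 CPM. These intervals cover counting error only.

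In young and old sections the spread within an age was larger than the mean level, and in middle sections it was smaller. Hcrt averaged 39.2 ± 54.0 CPM (SD, n = 2) in young, 191.5 ± 45.9 in middle and 37.8 ± 52.5 in old sections. Pmch averaged 92.6 ± 130.1 CPM in young, 759.5 ± 239.1 in middle and 222.0 ± 313.0 in old sections (SD, n = 2).

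The field was set beside markers of the sections' placement. The summed level of 6 genes of the paraventricular and supraoptic nuclei (Oxt, Avp, Sim1, Otp, Crh, Trh), which lie towards the front, was 210.2 CPM in young 1, 19.0 in young 2, 139.5 in middle 1, 27.3 in middle 2, 759.2 in old 1 and 23.4 in old 2. The 2 sections without the field thus had the highest sums, and middle 1, which had the field, came next. Oxt and Avp made up most of the sum in these 3 sections, with 513.8 and 209.4 CPM in old 1. Each of the 6 genes had its 2 highest values in young 1 and old 1. Crh differed little and was lower in middle 1 than in middle 2 or old 2. The sum of a subthalamic and mammillary list was lowest in middle 1, old 1 and young 1. Lists of other regions ordered the sections differently. The striatum sum was highest in middle 2 (261.4 CPM) and lowest in old 1 (128.2 CPM). The habenula sum was highest in old 1 (120.7 CPM) and lowest in young 1 (60.2 CPM), both without the field. Age and placement cannot be told apart with 1 young and 1 old section holding the field.

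**Figure D1:**
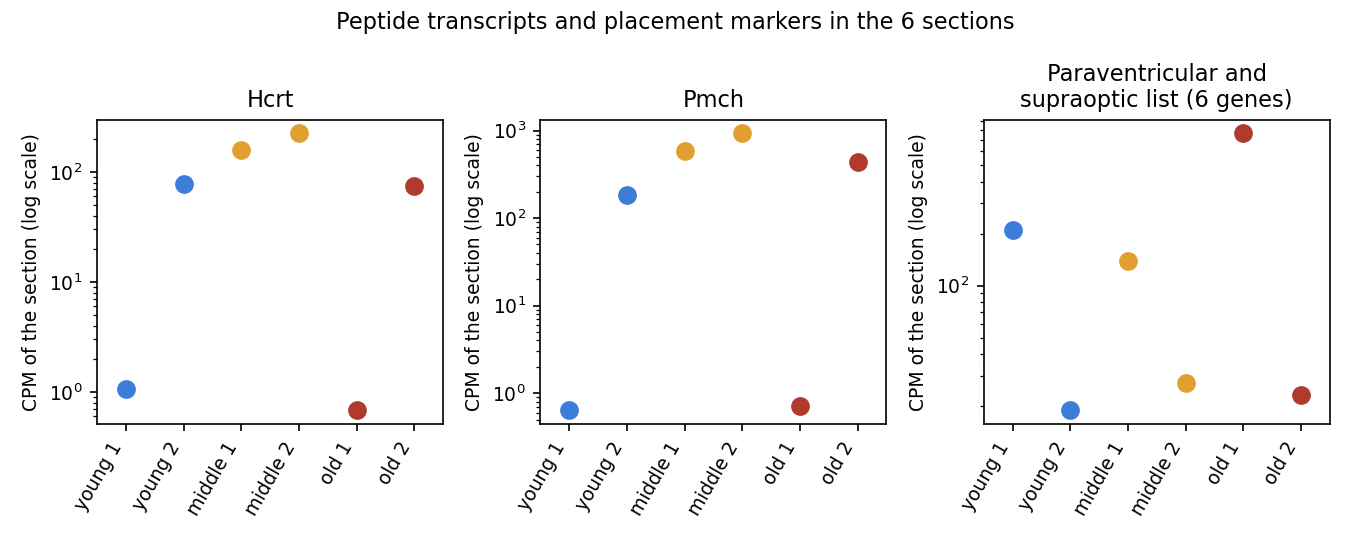
Level of Hcrt, Pmch and a list of 6 placement markers in each section, in CPM of the section on a log scale. Each point is 1 section, blue for young, yellow for middle and red for old. Young 1 and old 1 lie near 1 CPM for both peptide genes and have the 2 highest sums of the paraventricular and supraoptic list.

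Neither gene differed between ages in the fit of all 6 sections. In edgeR's quasi-likelihood test with Benjamini-Hochberg adjustment over 17673 genes, the log2 fold change of Hcrt was -0.08 (SE 2.62, adjusted p = 0.996) for old against young, 2.29 (SE 2.70, adjusted p = 0.881) for middle against young and -2.37 (SE 2.72, adjusted p = 1.00) for old against middle. For Pmch the same 3 values were 1.24 (SE 3.32, adjusted p = 0.920), 3.03 (SE 3.52, adjusted p = 0.878) and -1.79 (SE 3.36, adjusted p = 1.00). That is 0 of 2 genes called, against 0.164%, 0.0679% and 0% of all genes called in the 3 comparisons. SE here is the absolute log2 fold change divided by the square root of edgeR's F statistic. It is not a standard error reported by the fit, and it need not reflect the spread between sections. With SE values of over 2.6 on the log2 scale, very large changes could go undetected here. Leaving out young 1 and old 1 gave 1.31 (SE 0.29) for Hcrt and 2.04 (SE 0.43) for Pmch in middle against young, with edgeR adjusted p = 0.340 and 0.365, where the lone young and old sections are assumed to vary like the middle ones.

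The number of Hcrt-high spots followed the order of the Hcrt totals. Pmch-high spots did so too, except that middle 1 had more than middle 2, which had the larger Pmch total. Hcrt-high spots numbered 1 of 2573 in young 1, 50 of 2804 in young 2, 81 of 2735 in middle 1, 92 of 2800 in middle 2, 0 of 2973 in old 1 and 20 of 2856 in old 2. As shares of spots these were 0.0389%, 1.78%, 2.96%, 3.29%, 0% and 0.700%. Pmch-high spots numbered 0, 100, 219, 211, 0 and 119 in the same order, or 0%, 3.57%, 8.01%, 7.54%, 0% and 4.17% of spots. A count of 0 allows a share of up to 0.117% in young 1 and 0.101% in old 1. The middle sections had the most high spots of both genes, and young and old sections overlapped.

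The 3 ages were compared in an exact two-sided permutation test over the 6 sections (90 assignments). This exact test gave p = 0.133 for the number of Hcrt-high spots and p = 0.333 for Pmch-high spots, or 0.267 and 0.333 after adjustment over 4 tests of counts and shares. The smallest p this design allows is 0.0667. Mean UMIs per high spot were not tested, since 1 young section and 1 old section had none or a single such spot.

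UMIs per high spot varied less between the 4 sections than the number of spots did for Hcrt. An Hcrt-high spot held a mean of 107.8 UMIs in young 2, 140.4 in middle 1, 170.3 in middle 2 and 210.1 in old 2, with medians of 37, 25, 22 and 47.5. Old 2 thus had the fewest Hcrt-high spots of the 4 and, at this threshold, the highest mean, while at 20 UMIs middle 2 was above it, with means of 308.1 and 275.2. A Pmch-high spot held a mean of 131.5, 197.9, 322.3 and 217.7 UMIs in the same order, with medians of 37, 38, 98 and 28. Middle 2 was the highest for Pmch by both measures. With each spot thinned to 10000 UMIs and a threshold of 5, the means were 45.1, 62.3, 77.2 and 92.1 for Hcrt and 61.7, 90.2, 175.8 and 102.6 for Pmch, in the same order of sections as without thinning.

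Transcripts were concentrated in very few spots. The richest 10 spots held 64.6%, 61.8%, 56.4% and 87.5% of all Hcrt UMIs of young 2, middle 1, middle 2 and old 2, and 58.2%, 38.6%, 38.8% and 67.9% of the Pmch UMIs. The single highest spot had 917, 1817, 1542 and 1211 Hcrt UMIs in those sections and 2031, 2918, 4060 and 3221 Pmch UMIs. In the highest spot of middle 2, Pmch alone made up 20.7% of the 19588 UMIs of the spot. Spots with 200 or more UMIs numbered 6, 16, 20 and 5 for Hcrt and 14, 48, 58 and 19 for Pmch.

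Most of each transcript lay above the threshold of 10 UMIs, between 89.8% and 93.7% for Hcrt and between 91.8% and 97.3% for Pmch in the 4 sections. Just below it, 26, 31, 71 and 8 spots had 5 to 9 Hcrt UMIs, and just above it 6, 18, 33 and 1 spots had 10 to 14. For Pmch, 41, 67, 54 and 49 spots lay just below and 15, 35, 22 and 25 just above. At a threshold of 50 UMIs, 18, 30, 34 and 10 spots were left for Hcrt and 37, 93, 139 and 41 for Pmch.

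**Figure D2:**
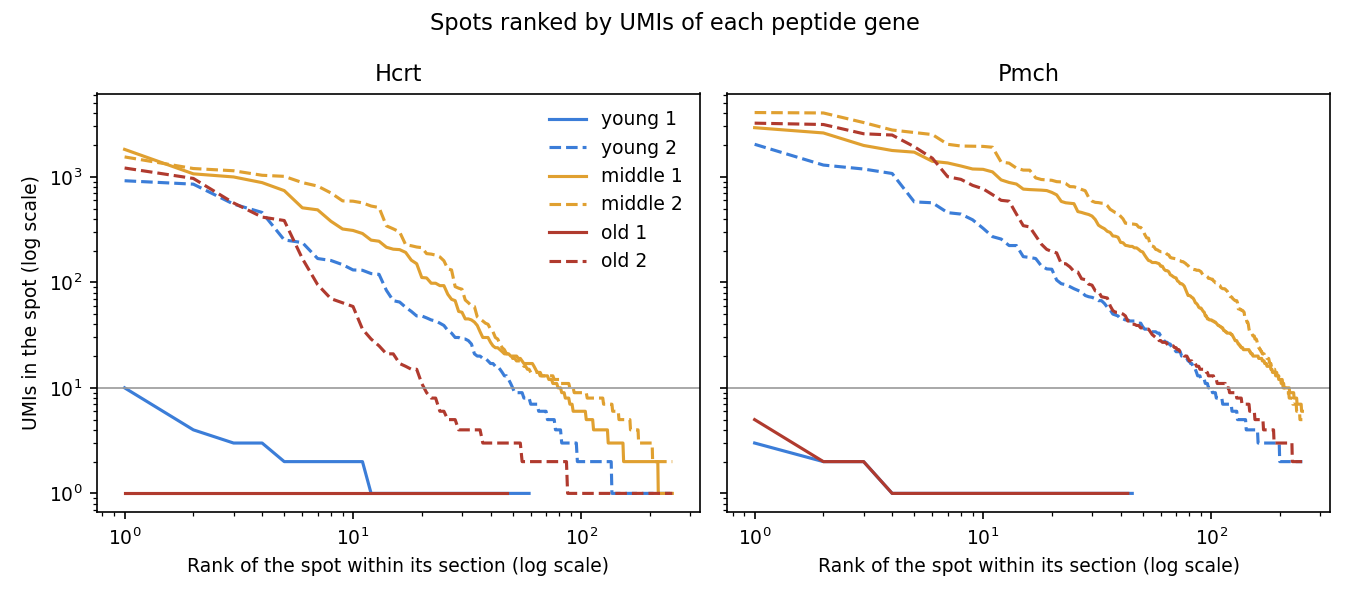
UMIs of Hcrt and Pmch per spot against the rank of the spot in its section, both on log scales, with the threshold of 10 UMIs as a grey line. Each line is 1 section, with up to 250 spots that hold a UMI, solid for replicate 1 and dashed for replicate 2. The 4 sections with the field start between 917 and 4060 UMIs, and young 1 and old 1 start at 10 or fewer.

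Young 1 and old 1 had little that stood out. The only Hcrt-high spot of young 1 held exactly 10 Hcrt and 0 Pmch UMIs among 12057, and it lay among the hypothalamus-like spots described next. In old 1 no spot had more than 1 Hcrt UMI, and the highest Pmch spot had 5. Of 3389 spot barcodes seen in any section, 1919 were in all 6, as the slides print the same barcode list. In young 1 and old 1, between 2.68% and 8.16% of the spots whose barcode was Pmch-high in another section had a Pmch UMI, against 1.22% to 1.71% of their other spots. For Hcrt the same shares ran from 0% to 10% against 1.57% to 2.37%, and they were lower than in the other spots in 4 of 8 pairs of sections.

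The high spots lay in hypothalamus-like tissue. Spots were ranked in each section by the summed share of 10 hypothalamic genes (Hap1, Baiap3, Zcchc12, Ahi1, Magel2, Peg10, Dlk1, Ndn, Resp18, Tmem130), and the top 10% are called hypothalamus-like. Of the Hcrt-high spots, 50 of 50 in young 2, 62 of 81 in middle 1, 70 of 92 in middle 2 and 14 of 20 in old 2 were among them. Of the Pmch-high spots, 93 of 100, 140 of 219, 154 of 211 and 81 of 119 were. Young 2 had the largest share inside for both genes, and no high spot of these 4 sections was cortex-like.

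A low background of both transcripts reached cortex in the sections with the field. Of cortex-like spots (the top 20% by 9 cortical genes), which should lack both peptides, 20.0% in young 2, 30.5% in middle 1, 48.6% in middle 2 and 16.1% in old 2 had at least 1 Pmch UMI. In young 1 and old 1 the share was 0.194% and 1.18%. For Hcrt the shares were 12.3%, 12.8%, 18.4% and 5.43% in the 4 sections and 2.33% and 3.19% in young 1 and old 1. A single UMI was therefore read as background. Median depth was 30070 to 41125 UMIs in cortex-like spots of the 4 sections and 15378 to 17476.5 in their Pmch-high spots.

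Hcrt-high spots were mostly Pmch-high as well, but the richest spots of the 2 genes differed. Both genes passed 10 UMIs in 48 of 50 Hcrt-high spots of young 2, 77 of 81 in middle 1, 79 of 92 in middle 2 and 17 of 20 in old 2. That is 96%, 95.1%, 85.9% and 85% of the Hcrt-high spots and 48%, 35.2%, 37.4% and 14.3% of the more numerous Pmch-high spots. At a threshold of 50 UMIs the shared spots were 9 of 18, 10 of 30, 24 of 34 and 7 of 10 of the Hcrt spots.

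Among the richest 10 spots of each gene, 3 were shared in young 2, 0 in middle 1, 1 in middle 2 and 2 in old 2. The spot with the most Hcrt in middle 1 had 1817 Hcrt and 39 Pmch UMIs, and the spot with the most Pmch there had 2918 Pmch UMIs and 1 Hcrt UMI. In middle 2 the top Hcrt spot was rich in both, with 1542 Hcrt and 2773 Pmch UMIs, while the top Pmch spot had 4060 Pmch and 9 Hcrt UMIs. Spearman's rho between the 2 genes over spots high in either was 0.19 in young 2 (102 spots), 0.11 in middle 1 (223), 0.30 in middle 2 (224) and 0.21 in old 2 (122). At 50 UMIs rho was -0.16, -0.43, 0.03 and -0.03 in the same order (46, 113, 149 and 44 spots), and at 20 UMIs -0.13, -0.18, 0.14 and 0.26, so the sign depended on the threshold. These are descriptions over spots of 1 library each, which share depth and were chosen on the same 2 genes.

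**Figure D3:**
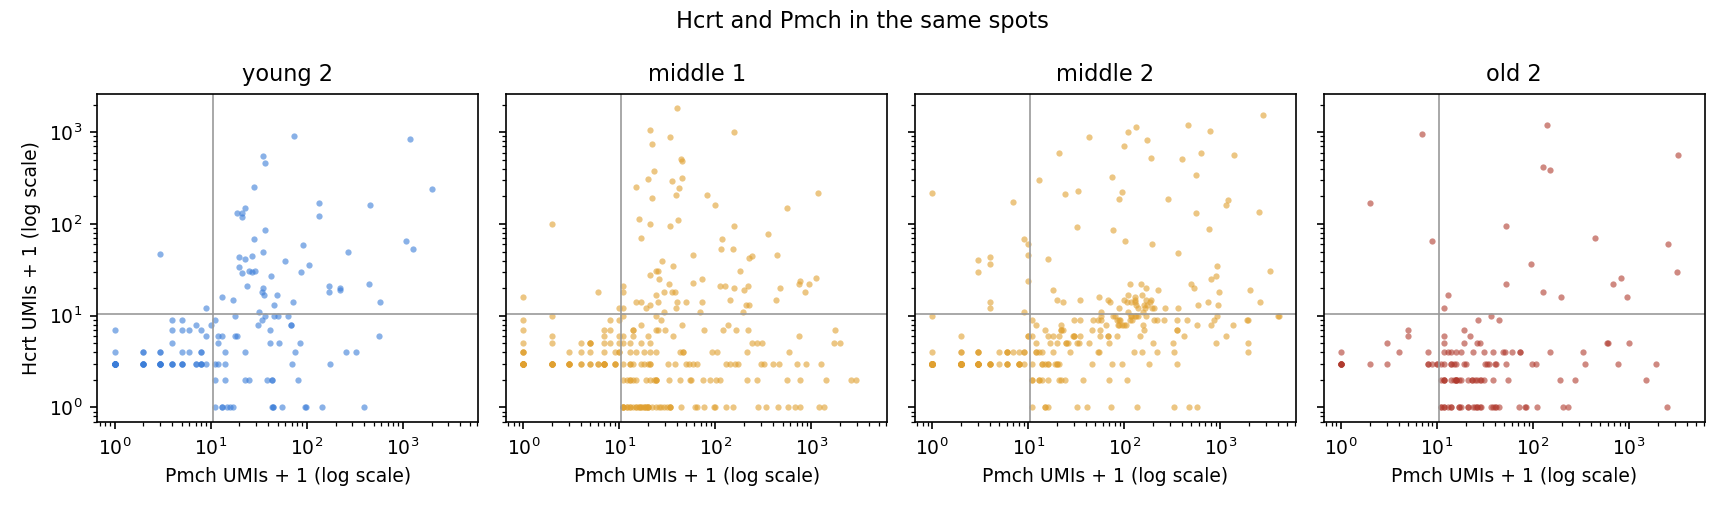
Hcrt against Pmch UMIs plus 1 in the spots of the 4 sections with the field, on log scales, for spots with at least 10 Pmch or 2 Hcrt UMIs. Grey lines mark the threshold of 10 UMIs. Most Hcrt-high spots lie to the right of the Pmch line, while many Pmch-high spots have few Hcrt UMIs.

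Other genes of these spots were first set against the rest of each section, in edgeR's quasi-likelihood test with the section as a block, over the 4 sections with the field. The 10 leading genes around Pmch were Ghrh, Gal, Slc18a2, Calcr, Arhgap36, Cartpt, Otp, Asb4, Lhx1os and Dlk1. Those around Hcrt were Csta2, Calcr, Arhgap36, Dlk1, Asb4, Gal, Otp, Ebf3, Gabrq and Gpx3. Hcrt and Pmch aside, no other called gene with at least 20 CPM in the high spots and 1 direction in every section had a larger log2 fold change. CPM in the spot comparisons use edgeR's scaling (TMM), so the level of a spot set differs a little between comparisons. Of all genes, 43.2% were called between Pmch-high and all other spots and 32.5% between Hcrt-high and all other spots. The other spots span the whole section, from cortex to hypothalamus.

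Cartpt, the precursor of the CART peptide and a known companion of MCH, was at 211, 1134, 1927 and 619.9 CPM in Pmch-high spots of young 2, middle 1, middle 2 and old 2, against 33.4, 33.4, 52.4 and 46.8 CPM in all other spots. Every high value was above every low one (log2 fold change 4.28, SE 0.64, edgeR adjusted p = 0.0154). Without middle 1, middle 2 or old 2 the edgeR adjusted p was 0.0722, 0.0856 and 0.0711. Otp, a transcription factor of hypothalamic neuron development, was at 39.3, 41.3, 33.0 and 28.8 CPM in Pmch-high spots against 1.56 to 2.27 CPM elsewhere (log2 fold change 4.22, SE 0.17, edgeR adjusted p = 5.33e-33). Gal, which encodes galanin, was at 76.1, 96.1, 163 and 90.6 CPM in Hcrt-high spots against 4.82 to 13.5 CPM elsewhere (log2 fold change 3.87, SE 0.12, edgeR adjusted p = 3.08e-223).

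Ghrh, which encodes growth hormone-releasing hormone, led the Pmch-high spots (log2 fold change 4.87, SE 0.96, edgeR adjusted p = 0.0308). Its level was 2.24, 17.3, 73.8 and 6.06 CPM, so the lead rested mainly on middle 2. Without young 2, middle 1 or old 2 its edgeR adjusted p was 0.0759, 0.127 and 0.0638.

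The orexin receptor genes were higher and the MCH receptor gene lower in the peptide field than in the rest of the section. Hcrtr1 was at 7.29, 7.23, 7.16 and 5.55 CPM in Pmch-high spots against 2.13 to 3.09 CPM elsewhere (log2 fold change 1.45, SE 0.24, edgeR adjusted p = 8.53e-07). Hcrtr2 rose by 1.76 on the log2 scale (SE 0.29, edgeR adjusted p = 4.46e-07). Mchr1 was at 6.73, 11.1, 5.504 and 10.6 CPM against 13.3 to 15.6 CPM (log2 fold change -0.75, SE 0.16, edgeR adjusted p = 0.000163). Against other hypothalamus-like spots none of the 3 receptors passed, with log2 fold changes of 0.13, 0.65 and -0.54 around Pmch.

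The comparison with other hypothalamus-like spots, which had to be high in neither gene, called fewer genes. The high spots themselves did not have to be hypothalamus-like. Of the Pmch-high spots, 93 of 100 in young 2, 140 of 219 in middle 1, 154 of 211 in middle 2 and 81 of 119 in old 2 were. The 2 sides thus also differ in how they were chosen, and the part of this in the calls was not tested. Of 12999 genes tested around Pmch 21.2% were called, and of 12276 around Hcrt 17.1%. These were 2753 and 2102 genes in edgeR, against 1046 and 808 in DESeq2 and 1768 and 1271 at a threshold of 50 UMIs. Without old 2 the count around Pmch was 1825, and around Hcrt it was 1055 without middle 2 and 1386 without middle 1. The leading genes around Pmch were Lhx1os, Pvalb, Calca, Nkx2-1, Isl1, Trh, Syt2, Slc18a2, Sfrp5 and Asb4. Around Hcrt they were Csta2, Nkx2-1, Pvalb, Sfrp5, Arhgap36, Kazald1, Asb4, Syt2, Dlk1 and Gm2694. Dlk1 is in the score that chose the comparison spots, so its value is a description. Of the genes of that score, 2 were called higher and 4 lower around Pmch, and 4 higher and 3 lower around Hcrt.

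Nkx2-1, a transcription factor of the ventral forebrain, was at 18.5, 17.3, 22.6 and 22.9 CPM in Pmch-high spots against 5.09, 9.73, 6.04 and 5.02 CPM (log2 fold change 1.65, SE 0.21, edgeR adjusted p = 1.59e-06). Pvalb, which encodes the calcium-binding protein parvalbumin, was at 70.5, 71.1, 110.4 and 119 CPM against 21.9 to 30.8 CPM (log2 fold change 1.82, SE 0.14, edgeR adjusted p = 3.62e-07). Against all other spots of the section, however, Pvalb was called lower around both Pmch and Hcrt. In the comparison with hypothalamus-like spots around Hcrt, Pvalb lost its call without middle 2 (edgeR adjusted p = 0.0527). Trh, the precursor of thyrotropin-releasing hormone, was at 29.5, 127, 77.4 and 42.7 CPM against 7.22 to 30.9 CPM (log2 fold change 1.58, SE 0.20, edgeR adjusted p = 0.000926). Calca, which encodes calcitonin and CGRP, had a log2 fold change of 1.73, which was -0.0078 with an edgeR adjusted p of 0.995 when spots of at least 50 Pmch UMIs were taken.

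Of 9 genes known from MCH neurons, 4 were higher in Pmch-high than in other hypothalamus-like spots, 1 was lower and 4 did not pass, against 10.7% of all genes called higher and 10.5% called lower. Their median log2 fold change was 0.52, and that of all genes was -0.0014. Tacr3, the neurokinin B receptor gene, was at 7.51, 39.4, 21.7 and 20.3 CPM against 7.22, 9.05, 10.6 and 6.61 CPM (log2 fold change 1.35, SE 0.24, edgeR adjusted p = 0.00123). The values of young 2 lay close together and those of the other 3 sections apart. Nucb2, the precursor of nesfatin-1, rose by 0.56 (SE 0.15, edgeR adjusted p = 0.00851) and Otp by 0.52 (SE 0.17, edgeR adjusted p = 0.0482).

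Parpbp rose by 3.47 (SE 0.64, edgeR adjusted p = 0.000216) but is uncertain. It lies on the strand opposite to Pmch and overlaps 944 of its 1304 bases, and use of strand in the authors' counting is not given in the sources used here. Adcyap1, which encodes the peptide PACAP, fell by 0.92 (SE 0.10, edgeR adjusted p = 7.29e-08). Cartpt was at 217, 1153, 1978 and 640.1 CPM against 233, 191, 434 and 281 CPM. It was higher in 3 of 4 sections and did not pass (log2 fold change 1.54, SE 0.58, edgeR adjusted p = 0.196). Around Hcrt, 3 of 8 measured genes of the MCH neuron list were higher than in other hypothalamus-like spots, 1 was lower and 4 did not pass. Of all genes, 8.76% were higher and 8.37% lower there. The list's median log2 fold change around Hcrt was 0.62, so its rise was not particular to Pmch-high spots.

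Of 13 genes known from orexin neurons, 11 were measured around Hcrt in the same comparison, where 6 were higher, 1 was lower and 4 did not pass, against 8.76% of all genes called higher and 8.37% called lower. Their median log2 fold change was 0.50, and that of all genes was -0.0041. Scg2, the granule protein secretogranin II, was at 1094, 1144, 1243 and 1279.9 CPM in Hcrt-high spots against 536, 549, 653 and 641 CPM, with no overlap (log2 fold change 1.00, SE 0.05, edgeR adjusted p = 3.4e-18). Pdyn, the precursor of dynorphin, which orexin neurons are known to contain, was at 69.5, 138, 149 and 71.4 CPM against 44.4, 71.1, 68.1 and 47.2 CPM (log2 fold change 0.91, SE 0.11, edgeR adjusted p = 1.23e-08).

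Gal, Rfx4, Vgf and Plagl1 were the other 4 that rose, by 1.18, 1.24, 0.50 and 0.41 on the log2 scale. Lhx9, a transcription factor known from orexin neuron development, fell by 1.16 (SE 0.27, edgeR adjusted p = 0.00276) and stood at 7.05 to 12.02 CPM against 10.2 to 39.6 CPM. Nptx2, which encodes neuronal pentraxin 2, was at 39.3, 64.8, 74.1 and 59.5 CPM against 50.3, 53.1, 18.5 and 15.5 CPM and did not pass (log2 fold change 0.76, SE 0.55, edgeR adjusted p = 0.501). Its level in the comparison spots was higher in young 2 and middle 1 than in middle 2 and old 2, and it is also in the list of ventromedial nucleus genes.

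Genes for the processing and packing of peptides rose in part. Of 11 such genes, 7 were higher, 1 was lower and 3 did not pass around Hcrt, and 4 were higher with 7 not passing around Pmch. Of all genes, 8.76% were higher and 8.37% lower around Hcrt, and 10.7% and 10.5% around Pmch. Pcsk1, a prohormone convertase that cuts peptide precursors, was at 75.6, 56.7, 68.2 and 95.2 CPM in Hcrt-high spots against 25.04 to 32.2 CPM (log2 fold change 1.39, SE 0.13, edgeR adjusted p = 7.55e-11). Around Pmch it was at 53.7, 34.1, 47.4 and 37.0 CPM (log2 fold change 0.63, SE 0.13, edgeR adjusted p = 0.000975). Cpe, the carboxypeptidase that trims the cut ends, fell by 0.18 (SE 0.05, edgeR adjusted p = 0.00935) around Hcrt.

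Markers of glia and vessels were also called in these comparisons. All 7 of 7 oligodendrocyte markers were higher in Pmch-high than in other hypothalamus-like spots, with a median log2 fold change of 1.03, and 3 of 7 were higher around Hcrt, with a median of 1.01. Beside them, 10.7% and 8.76% of all genes were higher. Of 5 endothelial markers 4 were higher around Pmch (median 0.59) and 2 around Hcrt (median 0.54). Of 9 microglial markers 5 were higher around Pmch (median 0.38) and 4 around Hcrt (median 0.36). Mog, a myelin surface protein gene, was at 109, 81.4, 80.5 and 107 CPM in Pmch-high spots against 60.7, 45.6, 31.1 and 40.2 CPM. The part of these markers in the results against hypothalamus-like spots was not tested. Between Hcrt-high and Pmch-only spots, described next, 0 of 7 oligodendrocyte, 0 of 5 endothelial and 0 of 9 microglial markers were called in edgeR, with medians of 0.05, -0.09 and -0.0021. Only 0.415% of all genes were called there, so these counts of 0 say little about the markers.

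The closest comparison set Hcrt-high spots against spots high in Pmch alone, which numbered 52 in young 2, 142 in middle 1, 132 in middle 2 and 102 in old 2. Of 11328 genes 0.415% were called, 26 higher (0.23%) and 21 lower (0.185%) in the Hcrt-high spots. DESeq2 called 12, of which 11 were among the 47 of edgeR. Of those 47, 27 remained without middle 1, 29 without middle 2, 21 at a threshold of 20 UMIs and 17 at 50 UMIs. The leading genes were C1ql3, Csta2, Nptx2, Pdyn, Pcsk1 and Scg2 on the Hcrt-high side and Crabp1, Tcf7l2, Ramp3, Mgp, Stum and Nbl1 on the Pmch-only side. Most Hcrt-high spots are also Pmch-high, so both sides hold Pmch.

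Nptx2 was at 38.7, 63.6, 73.2 and 59.0 CPM in Hcrt-high spots of young 2, middle 1, middle 2 and old 2, against 12.3, 20.6, 16.4 and 12.02 CPM in Pmch-only spots. The groups did not overlap (log2 fold change 1.90, SE 0.17, edgeR adjusted p = 4.18e-12). C1ql3, which encodes a secreted synaptic protein, was at 25.8, 30.2, 28.1 and 35.4 CPM against 8.60, 2.43, 4.45 and 5.41 CPM, also with no overlap (log2 fold change 2.71, SE 0.28, edgeR adjusted p = 8.21e-10). Csta2, of the cystatin protease inhibitors, was at 7.94, 23.6, 20.3 and 35.4 CPM against 1.23, 2.83, 7.56 and 6.01 CPM, and every Hcrt-high value was above every other (log2 fold change 2.23, SE 0.31, edgeR adjusted p = 3.13e-06).

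Scg2 was at 1078, 1124, 1228 and 1269 CPM against 517, 401, 492 and 507 CPM, which gave the smallest SE of these 6 genes (log2 fold change 1.31, SE 0.05, edgeR adjusted p = 9.95e-26). Pdyn was at 68.5, 136, 147 and 70.8 CPM against 18.4, 36.0, 79.1 and 18.6 CPM, and the Pmch-only spots of middle 2 were above the Hcrt-high spots of young 2 and old 2 (log2 fold change 1.44, SE 0.15, edgeR adjusted p = 3.76e-06). Pcsk1 was at 74.4, 55.7, 67.3 and 94.5 CPM against 18.2 to 33.3 CPM (log2 fold change 1.37, SE 0.15, edgeR adjusted p = 1.35e-09). These 6 genes passed under all 9 alternatives run, which included DESeq2, thresholds of 20 and 50 UMIs and leaving out each section.

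Of the orexin neuron list, 6 of 11 measured genes were higher on the Hcrt-high side and 5 did not pass. Of all genes, 0.23% were called higher and 0.185% lower. The list's median log2 fold change was 0.79 against 0.0013 for all genes. The called members were Nptx2, Pdyn, Scg2, Plagl1, Vgf and Nek7. Lhx9 (log2 fold change 1.48, SE 0.45, edgeR adjusted p = 0.223) and Rfx4 (0.79, SE 0.22, edgeR adjusted p = 0.128) did not pass. Nts, which encodes neurotensin, was higher at 78.4, 73.4, 206 and 127 CPM against 59.0, 19.0, 84.9 and 52.3 CPM (log2 fold change 1.27, SE 0.14, edgeR adjusted p = 3.13e-06). Penk, which encodes enkephalin, rose by 0.46 (SE 0.09, edgeR adjusted p = 0.00197).

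Of the MCH neuron list, 1 of 8 measured genes was called, and that was Scg2, on the Hcrt-high side. Scg2 is also in the orexin neuron list. With 0.415% of all genes called, few calls would be found in a list of 8. Cartpt was at 139.9, 907, 1206 and 103 CPM in Hcrt-high spots against 296, 1219, 2301 and 717 CPM in Pmch-only spots. It was lower in 4 of 4 sections but did not pass (log2 fold change -0.96, SE 0.35, edgeR adjusted p = 0.785), and its spread between sections was wide on both sides. Tacr3 and Nucb2 had log2 fold changes of -0.18 (SE 0.22) and 0.04 (SE 0.20).

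The genes of the Pmch-only side depended more on the settings. Tcf7l2, a transcription factor known from the thalamus, was at 20.8, 24.3, 12.4 and 8.86 CPM in Hcrt-high spots against 97.0, 82.6, 35.1 and 18.6 CPM (log2 fold change -1.80, SE 0.17, edgeR adjusted p = 2.94e-11). It did not pass at a threshold of 50 UMIs (-0.70, edgeR adjusted p = 0.634). Crabp1, a retinoic acid-binding protein gene, was at 0.992, 3.28, 4.58 and 0 CPM against 1.23, 4.05, 66.2 and 28.2 CPM, so the difference lay in middle 2 and old 2. Crabp1, Ramp3, Mgp, Stum and Nbl1 lost the call in DESeq2 and at a threshold of 20 UMIs. Leaving out a section ended the call of Ramp3 and Stum (without middle 1, edgeR adjusted p = 0.274 and 0.821), Mgp and Nbl1 (without middle 2, edgeR adjusted p = 0.667 and 0.822) and Nbl1 (without old 2, edgeR adjusted p = 0.0888).

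Marker genes of neighbouring nuclei were called in both directions. Avp, the vasopressin gene, was called lower in Hcrt-high spots (log2 fold change -3.98, SE 0.32, edgeR adjusted p = 0.0303). It stood at 1.98, 87.2, 1.31 and 2.95 CPM against 1.23, 1285, 112 and 1.20 CPM, so it was lower in the 2 middle sections alone. Its SE does not reflect this spread between sections. Fezf1, a ventromedial nucleus gene, was called higher, at 0, 49.2, 13.7 and 0 CPM against 1.23, 22.7, 3.56 and 1.20 CPM (log2 fold change 1.21, SE 0.28, edgeR adjusted p = 0.023), and was higher in the 2 middle sections alone. Pomc of the arcuate nucleus fell by 1.04 (SE 0.20, edgeR adjusted p = 0.00381). The astrocyte gene Gfap fell by 0.68 (SE 0.15, edgeR adjusted p = 0.0106), and the other 6 astrocyte markers did not pass. Of all genes, 0.415% were called in this comparison, and the part of these markers in it was not tested.

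**Figure D4:**
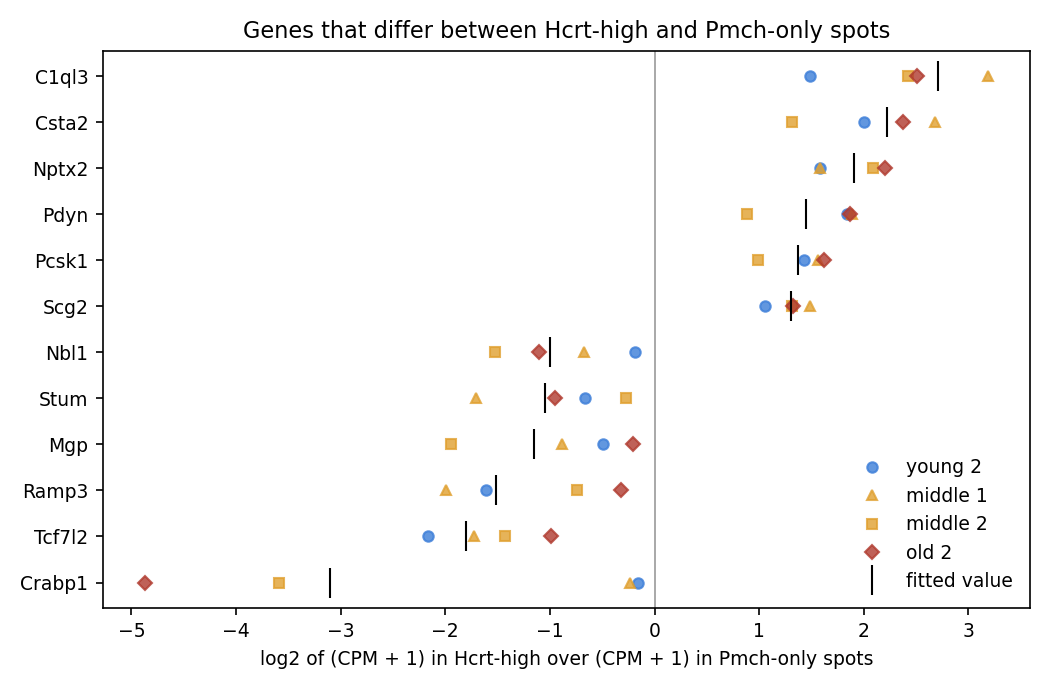
Leading genes called between Hcrt-high and Pmch-only spots, as log2 of the ratio of CPM plus 1. Each symbol is 1 section and the black bar is the fitted log2 fold change. The 6 genes above 0 are higher in Hcrt-high spots in every section, by amounts that vary between sections for genes such as C1ql3 and Pdyn. Crabp1 differs mainly in middle 2 and old 2.

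Levels of some genes also differed with the amount of each peptide transcript within the field. For this, spots were banded by UMIs, and other genes were expressed in CPM without the UMIs of Hcrt and Pmch, so that the peptide transcripts could not dilute them. These bands are descriptions, with no test. Scg2, Pdyn, Pcsk1, C1ql3, Plagl1, Csta2 and Nptx2 had already been called higher in Hcrt-high than in Pmch-only spots. Their rise along Hcrt comes from the same spots and is not independent evidence. Scg2 was at a median of 198 CPM over the 4 sections in spots under 10 Hcrt UMIs, 597 from 10 to 49, 1009 from 50 to under 200 and 2800.0 at 200 or more. In the top band, of 47 spots, it ranged from 2488 to 3101 CPM between sections, above every section's value in the lower bands.

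From the 10 to 49 band to the top band, medians went from 48.0 to 271 CPM for Pdyn, 26.8 to 184 for Pcsk1, 8.37 to 84.6 for C1ql3, 21.8 to 109 for Plagl1 and 6.61 to 37.9 for Csta2. In each of the 4 sections all 5 were higher in the top band than from 10 to 49 UMIs. Csta2 in old 2 was highest from 50 to under 200, at 88.4 CPM. Some levels rest on very few UMIs. In old 2, C1ql3 and Plagl1 had 0 and Pdyn 1 from 10 to 49 Hcrt UMIs. Csta2 had 1 UMI there and 4 in the top band, and 1 and 3 in young 2. Gal went from a median of 69.8 to 88.8 CPM. It fell in young 2 (78.5 to 57.2) and middle 2 (215.5 to 95.6) and rose in middle 1 and old 2. Nts medians were 106 and 119 CPM.

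Nptx2 was at 100.03, 135, 205 and 155 CPM in the top Hcrt band of young 2, middle 1, middle 2 and old 2, against 24.5, 39.7, 33.8 and 6.77 CPM from 10 to 49 UMIs. These levels rest on 14 to 73 and on 1 to 37 Nptx2 UMIs a section. All 4 sections were highest in the top band, and spots under 10 Hcrt UMIs, which take in the rest of the brain section, were at 43.1 to 51.9 CPM. The hypothalamic gene Hap1 had medians of 402 and 470.4 CPM in the same 2 Hcrt bands. Cartpt was at 57.2, 667, 261 and 128 CPM in the top Hcrt band of the 4 sections, against 157, 1074, 1744 and 102 CPM from 10 to 49 UMIs. It was lower in the top band in 3 sections and higher in old 2.

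Along Pmch, 5 of the 9 genes of the MCH neuron list were banded. Cartpt had medians of 286 CPM from 10 to 49, 629 from 50 to under 200 and 2278 at 200 or more Pmch UMIs, the last over 139 spots. From the 10 to 49 band to the top band Cartpt went from 151 to 274 CPM in young 2, 184 to 3489 in middle 1, 2009 to 3071 in middle 2 and 389 to 1484 in old 2. It was higher in the top band in all 4 sections, but not by steady steps. From 50 to under 200 UMIs it was at 358 CPM in young 2, above its top band, and at 1331 in middle 2, below both its lower and its top band. Tacr3 went from a median of 9.78 to 57.4 CPM, Nucb2 from 14.5 to 42.3 and Parpbp from 0.411 to 14.5, the last with the overlap given above. Few UMIs lie behind some of these levels. From 10 to 49 Pmch UMIs, Parpbp had 3 UMIs in all, over 339 spots. Tacr3 in young 2 had 5 UMIs there and 6 in the top band. Scg2 and Nptx2 had medians of 689 and 25.8 CPM from 10 to 49 and 805 and 22.2 CPM at 200 or more Pmch UMIs. In middle 1 Scg2 was lower in the top band, at 467 CPM against 793 from 10 to 49 UMIs.

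**Figure D5:**
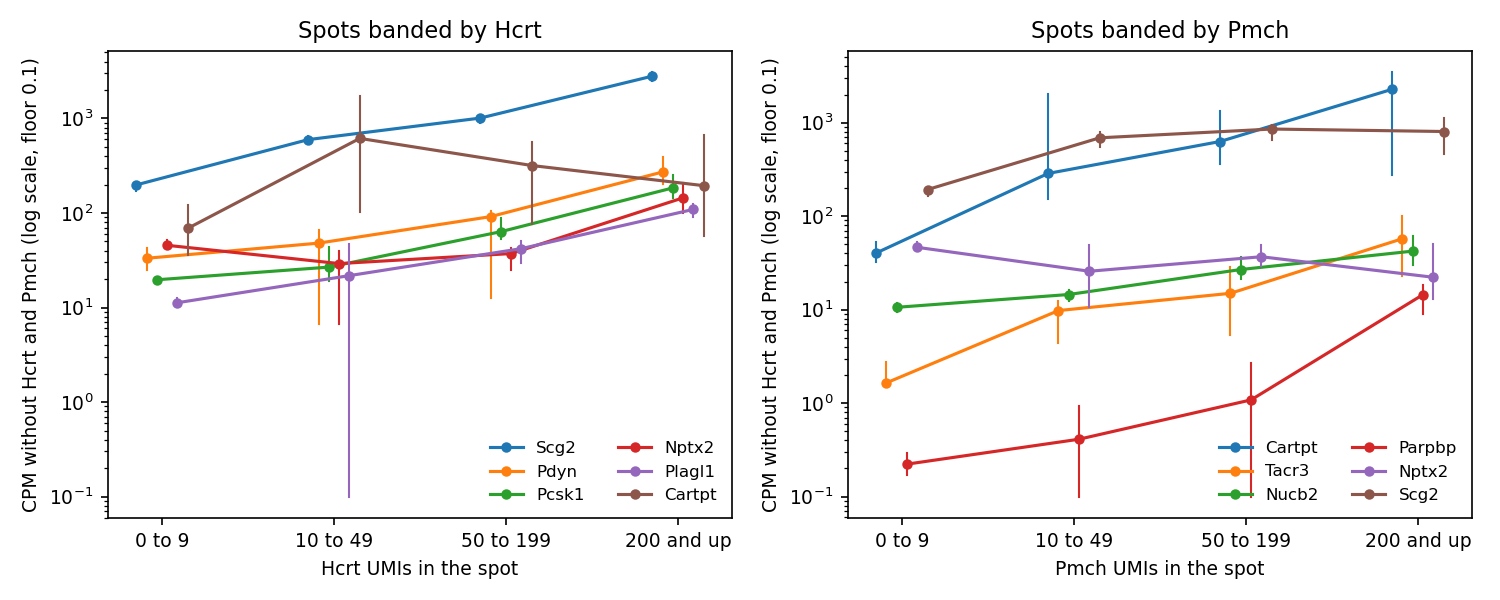
CPM of companion genes, without Hcrt and Pmch UMIs, in spots banded by Hcrt (left) and Pmch (right), on log scales with values under 0.1 drawn at 0.1. Points are medians and bars the range over the 4 sections with the field. By their medians Scg2, Pdyn, Pcsk1, Nptx2 and Plagl1 are highest in the top Hcrt band, and Cartpt, Tacr3, Nucb2 and Parpbp in the top Pmch band.

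Age was last compared within Pmch-high spots, over 1 young, 2 middle and 1 old section. The level of Pmch there, which the choice of spots used, was 7448, 11119, 18898 and 13236 CPM in young 2, middle 1, middle 2 and old 2, and that of Hcrt 3113, 2952, 4310.2 and 1626 CPM. Young 2 was lowest for Pmch and old 2 for Hcrt. Of 12610 genes, 6 (0.0476%) were called for old against young, 13 (0.103%) for middle against young and 9 (0.0714%) for old against middle. DESeq2 called 1, 0 and 1, and the lone young and old sections are assumed to vary like the 2 middle ones.

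The heat shock genes Hspa1a and Hspa1b were highest in young 2, at 61.2 and 37.9 CPM, against 12.8 to 14.7 and 6.13 to 11.1 CPM in the other 3 sections. In old against young their log2 fold changes were -2.26 (SE 0.31, edgeR adjusted p = 0.00158) and -2.62 (SE 0.40, edgeR adjusted p = 0.00523). C4b, a complement component gene, was at 10.2, 40.0, 53.1 and 46.5 CPM (2.18, SE 0.35, edgeR adjusted p = 0.00798 for old against young). Young 2 was apart from the other 3 sections in all 3 genes, and also in Sgk1, a kinase gene, at 139.9, 35.7, 47.0 and 52.6 CPM. The other 2 genes called for old against young set old 2 apart instead. They were Meg3, a long noncoding RNA, at 1030.3, 1040.3, 986 and 485 CPM, and Sst, which encodes somatostatin, at 353, 329.8, 341 and 191 CPM. The heat shock genes and C4b come from lists chosen on earlier results of these data, so this is not independent evidence.

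Barhl1, Ebf3 and Six3, which encode transcription factors, were among the genes called for old against middle and were picked as examples after their values were seen. Barhl1, known from the mammillary region, was at 6.80, 0.257, 0.834 and 13.8 CPM in Pmch-high spots of the 4 sections. In old against middle it rose by 4.58 (SE 0.73, edgeR adjusted p = 0.00406) on the log2 scale, and it did not pass against young in middle or old (edgeR adjusted p = 0.149 and 0.978). Ebf3 was at 50.4, 9.23, 8.34 and 37.8 CPM and Six3 at 6.80, 31.3, 26.7 and 5.62 CPM. Young 2 and old 2 were on one side in these 3 genes and both middle sections on the other. Cartpt, at 213, 1127, 1946 and 627 CPM, did not pass in any of the 3 comparisons.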

How the data were processed

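Raw UMI counts per gene and spot are what the authors deposited, and per the file headers the software was Space Ranger 1.3.1. The submitters' processing notes name Space Ranger 3.1 and the build mm10. The annotation, the spot filter and use of strand are not given in the sources used here, and spot coordinates were not used. Spots under 500 UMIs were left out (1 each in middle 2 and old 2). Counts were summed per section and spot set and tested with edgeR 4.0.16 (R 4.3.3; robust quasi-likelihood, TMM, filterByExpr), two-sided, adjusted by Benjamini-Hochberg over all genes tested, with a threshold of 0.05. Spot sets were compared in sections with at least 5 high spots, with the section as a block. The section is the replicate. The alternatives tried were thresholds of 5, 20 and 50 UMIs, DESeq2 1.42.0, no filter on low counts, RLE factors, thinning, blocks by slide and replicate number, and leaving out each section. The fits with only the 4 sections that hold the field, and the threshold of 50 UMIs in the spot set fits, were added after seeing the data. The fit was tested on simulated data for 3 comparisons (whole sections old against young, Pmch-high against other hypothalamus-like spots and Hcrt-high against Pmch-only spots).

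Named genes were, per comparison, up to 10 called genes (6 per direction for Hcrt-high against Pmch-only spots) with the largest log2 fold change, a mean of at least 20 CPM in the spots where they were higher and the same direction in every section, and list members. In the age fits they were up to 5 called genes per direction with a mean of at least 10 CPM and no overlap. The members and lists were chosen with earlier results of these data known. Gene positions came from GENCODE M21 and promoters from RefSeq. A gene that the rule names and the marker list that holds it are not reported here.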

Additional observations from a re-analysis of the deposited data

How the results depend on the processing

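Depth limits single UMIs, which were common in cortex-like spots of the 4 sections with the field, and there are only 2 sections an age. The old minus young values of both genes turned sign with single sections. Leaving out each section in turn, the log2 fold change of Hcrt in whole sections ran from -5.88 to 5.07 and that of Pmch from -7.05 to 8.37, and with the slide as a block that of Pmch was -2.81. The number of high spots, old minus young, was -15.5 for Hcrt and 9.5 for Pmch over all sections, and from -40 to 9 and from -50 to 69 with each section left out. With only the 4 sections that hold the field it was -30 and 19. None of these passed a test. The permutation test of high spots over all 6 sections allows no p under 0.0667, and the counts of the 4 sections alone were not tested. The replicate block gave log2 fold changes of -0.10 for Hcrt and 1.04 for Pmch in old against young and changed no call. Replicate numbers did not pair the sections: differences between replicates correlated at -0.0008, 0.18 and 0.34 between ages. Blocks by slide or number, and fits without middle 1 or middle 2, could not be fitted in Pmch-high spots, where no residual degrees of freedom would be left.

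Counts of called genes moved with the tool and the threshold, and the cause was not tested. DESeq2 called 1046 genes in Pmch-high against other hypothalamus-like spots (2753 in edgeR), 808 for Hcrt-high (2102 in edgeR) and 12 for Hcrt-high against Pmch-only spots (47 in edgeR), of which 11 were shared. With at least 50 UMIs these were 1768, 1271 and 31 (17 of the 47), and Hcrt-high against all other spots gave 3457 (5388 at 10 UMIs). With no filter, Hcrt-high against Pmch-only spots gave 75, which held all 47. Leaving out each section gave 1825 to 2497, 1055 to 1948 and 38 to 56 (of the 47, 27 to 35 remained), the lowest without old 2, middle 2 and old 2, and 1386 for Hcrt-high without middle 1. In Pmch-high spots old against young gave 1 gene in DESeq2, 29 with no filter and 1 at 50 UMIs. Middle against young gave 0, 104 and 1, and 26 at 20 UMIs. Old against middle gave 1, 59 and 1. For the named genes of the 5 spot comparisons, 422 of 462 alternative values kept direction and call, 39 lost the call and 1 turned sign (Calca, -0.0078 at 50 UMIs).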
